A study of Mus musculus with 12 samples.

Results

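The oxygen-sensing pathway and the muscle oxygen store were examined in the mouse EDL (extensor digitorum longus), a hind limb muscle made almost wholly of fast fibers, as 10 genes of the 17752 whose expression was deposited. The genes were taken by symbol: Hif1a, Epas1, Hif3a, Arnt, Vhl, Egln1, Egln2, Egln3, Hif1an and Mb. RNA-seq was performed on male mice in 4 groups of 3 libraries, 12 libraries in all. The study asked how loss of RIP140, the nuclear receptor corepressor encoded by Nrip1, bears on muscle gene expression at rest and after endurance training.

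WT sedentary mice were littermate controls that carried floxed Nrip1 alleles without Cre recombinase, and strNrip1-/- sedentary mice carried the floxed alleles and a Cre driven by the muscle creatine kinase promoter, which acts in heart and skeletal muscle and not in the other cell types of a muscle. Per the study's methods, the floxed line was C57BL/6J and the Cre line C57BL/6JN. All mice entered the experiment at 8 weeks of age. The WT trained and strNrip1-/- trained groups had the same genotypes and were given voluntary running wheels for 8 weeks, over which the sedentary groups had none. The wheels were removed before tissue was taken. In the labels the genotypes appear as control and Nrip1 knockout, and nothing in them says that replicates of a group were separate cages or litters, so p-values measure the spread between these libraries.

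In GENCODE M21 on GRCm38 all 10 are protein-coding genes, and the values are of whole genes: Hif1a (ENSMUSG00000021109, chr12:73901375-73947530, plus strand), Epas1 (ENSMUSG00000024140, chr17:86753700-86833410, plus strand), Hif3a (ENSMUSG00000004328, chr7:17031507-17062427, minus strand), Arnt (ENSMUSG00000015522, chr3:95434388-95497240, plus strand), Vhl (ENSMUSG00000033933, chr6:113623959-113631633, plus strand), Egln1 (ENSMUSG00000031987, chr8:124908587-124949324, minus strand), Egln2 (ENSMUSG00000058709, chr7:27158658-27166802, minus strand), Egln3 (ENSMUSG00000035105, chr12:54178981-54203860, minus strand), Hif1an (ENSMUSG00000036450, chr19:44562850-44576274, plus strand) and Mb (ENSMUSG00000018893, chr15:77015487-77050670, minus strand).

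Under normal oxygen, prolyl hydroxylases of the EGLN family modify the alpha subunits of the hypoxia-inducible factors (HIF), and the von Hippel-Lindau protein then marks them for destruction. When oxygen falls, the alpha subunits persist, pair with ARNT and switch on genes of glycolysis, blood vessel growth and oxygen delivery. Most of this control acts on the proteins, so a transcript level is not a measure of HIF activity. Myoglobin, the product of Mb, binds oxygen inside oxidative muscle fibers and the heart.

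The letters just upstream of a transcript start are shown for Egln1, Egln2 and Mb, because HIF binds a short core that these stretches can be searched for. Egln1 and Mb passed the test between genotypes at rest and after training. Egln2 went the other way at rest without passing it. Hif1an, which was also lower and passed only in the average over training, is not shown, and its window held no HIF core. The choice was made with these values known. RefSeq promoter sequences on GRCm38.p6 were matched by symbol for 9 of the 10 genes, Epas1 being the tenth. Capitals in Egln1 and Egln2 mark the HIF core, ACGTG or GCGTG on either strand (CACGT or CACGC when read from the other strand), and capitals in Mb mark the E box CANNTG, the core of basic helix-loop-helix factors such as MyoD. All are printed 5′ to 3′ on the minus strand, and bases inside an annotated exon were left out. The Mb stretch lies before a start inside the span of the gene, as the window at the outer end of Mb was wholly exonic.
Egln1, chr8:124949325-124949504: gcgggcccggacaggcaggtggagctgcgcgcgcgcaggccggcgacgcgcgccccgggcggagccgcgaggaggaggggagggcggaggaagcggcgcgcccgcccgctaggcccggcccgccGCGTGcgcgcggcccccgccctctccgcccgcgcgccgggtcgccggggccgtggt
Egln2, chr7:27166803-27167052: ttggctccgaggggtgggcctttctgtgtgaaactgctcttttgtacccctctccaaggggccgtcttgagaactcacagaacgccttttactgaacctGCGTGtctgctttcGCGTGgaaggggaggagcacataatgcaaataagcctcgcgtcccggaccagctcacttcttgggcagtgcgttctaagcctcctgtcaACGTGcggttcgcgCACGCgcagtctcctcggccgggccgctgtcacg
Mb, chr15:77022788-77023037: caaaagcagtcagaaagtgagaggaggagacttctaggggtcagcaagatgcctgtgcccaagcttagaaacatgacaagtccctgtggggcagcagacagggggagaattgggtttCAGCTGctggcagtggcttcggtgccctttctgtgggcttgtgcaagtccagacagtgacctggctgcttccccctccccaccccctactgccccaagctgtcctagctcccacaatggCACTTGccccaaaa

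Over the 250 bases before each of their 12 starts, a HIF core was found for 6 of the 9 genes: Hif1a, Hif3a, Arnt, Egln1, Egln2 and Egln3. Of all 32851 promoter windows of that length, 38.6% held at least 1 such core, 16.6% held ACGTG and 28.2% held GCGTG. These shares count single windows, which belong to 27025 symbols, whereas a member gene was counted if any of its windows held a core. Where the letters are CACGTG, as once in Hif1a, the same place counts as ACGTG on both strands and as an E box. The Egln1 stretch had 86.7% G and C, against a median of 52.4% over all windows, and its ACGTG lies in the annotated first exon and so is not printed. No window of Vhl, Hif1an or Mb held either core, and the Mb stretch held 2 E boxes, a motif present in 66.2% of all windows. The nuclear receptor motif AAGGTCA, present in 4.1% of all windows, was in none of the 12 member windows. These matches describe letters in a window and were not tested as binding sites.

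The libraries corresponded to 19.9 to 29.2 M fragments, estimated from the spacing of low values, and 3 fragments on a transcript of 2 kb correspond to 0.0514 to 0.0755 FPKM (fragments per kilobase of transcript, scaled by depth). The targeted gene, Nrip1, was higher in the libraries labelled strNrip1-/-. It was at 3.33 ± 0.689 FPKM (SD, n = 3) in WT sedentary and 15.5 ± 0.680 FPKM in strNrip1-/- sedentary libraries. Trained libraries had 3.62 ± 1.12 and 17.4 ± 3.02 FPKM, WT first. The log2 differences were 2.08 and 2.14 (adjusted p = 0.000277 and 0.000209, limma). These are values of the whole gene and do not show which exons were read. Per the study's methods, the loxP sites flank the last exon, which holds the start and stop codons. The exons before it stay in place by that design. The cause of the higher whole-gene value was not tested, and the value alone does not settle the labels. Another gene far apart between the labelled genotypes was the fast fiber gene Actn3, with a ratio of 0.534 at rest and 0.595 after training (adjusted p = 0.000252 and 0.000817), named after its values were seen. Every genotype direction below therefore rests on the labels, and libraries are called labelled WT or labelled strNrip1-/-. The tissue label fitted the fiber markers: the fast 2B list ran from 1464 FPKM (Mybpc2) to 26799 FPKM (Tnnt3) in the mean of the libraries, and the slow and 2A list from 7.95 FPKM (Tnni1) to 245 FPKM (Myh2). Of the libraries, 3 stood apart within their groups in the summed slow and 2A markers: replicate 2 of labelled WT sedentary at 672 FPKM against 303 and 379, replicate 2 of labelled WT trained at 944 against 393 and 342, and replicate 1 of labelled strNrip1-/- sedentary at 658 against 417 and 398.

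FPKM is scaled by length, so levels can be set side by side between genes. Mb averaged 3772 ± 1220 FPKM (SD, n = 12), above 99.8% of the 12744 genes tested, meaning those with a mean of at least 0.5 FPKM. The prolyl hydroxylase Egln1 followed at 94.5 ± 15.1 FPKM. Next came Egln2 at 45.7 ± 5.41, the HIF alpha subunit Epas1 (HIF-2α) at 41.8 ± 7.72 and Hif1an, the asparaginyl hydroxylase that blocks coactivator binding, at 37.1 ± 5.52 FPKM. These 3 overlapped in range across the libraries. Egln3 at 18.6 ± 7.19 and Arnt, the shared beta subunit, at 15.9 ± 1.54 FPKM also overlapped. Hif1a was at 4.30 ± 0.350 FPKM and Vhl, the recognition subunit of the ubiquitin ligase, at 2.15 ± 0.426 FPKM. Hif3a, an alpha subunit with inhibitory splice forms, averaged 0.273 ± 0.229 FPKM and was not tested because it lay under the filter. Its 12 values ran from 0.0767 to 0.798 FPKM and overlapped between all groups. Statements on overlap between groups, here and below, are descriptions, as the share of all genes without overlap was not counted.

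**Figure D1:**
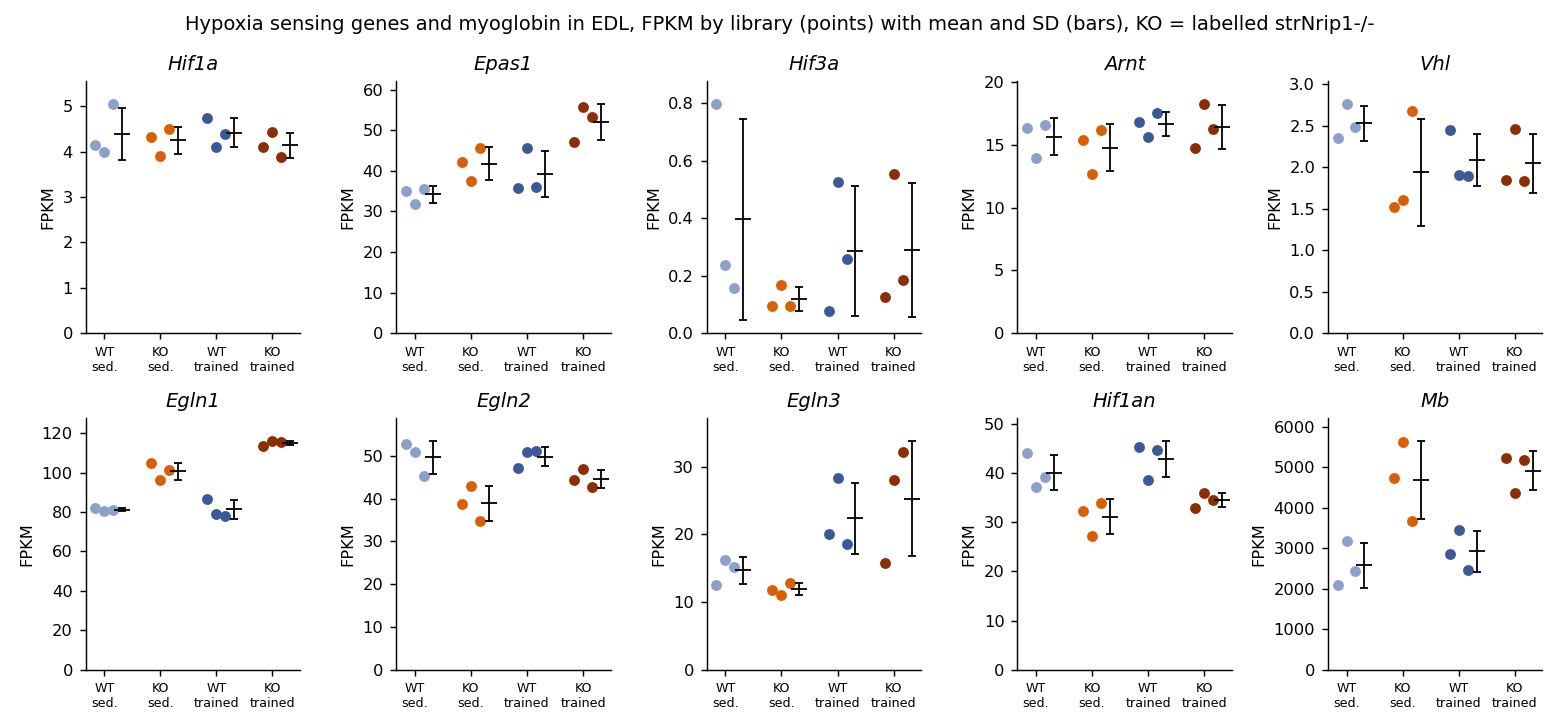
FPKM of the 10 genes in each of the 12 libraries, with 1 panel a gene, points for libraries and black bars for the mean and SD of each labelled group of 3. In Mb and Egln1 all libraries labelled strNrip1-/- (KO) lie above all labelled WT libraries, and in Hif1an all lie below them.

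Myoglobin was higher in the libraries labelled strNrip1-/- than in those labelled WT, sedentary and trained alike. Sedentary libraries labelled WT had 2099, 3189 and 2430 FPKM of Mb, and those labelled strNrip1-/- had 4743, 5621 and 3682 FPKM. Trained libraries labelled WT had 2855, 3448 and 2454 FPKM, and those labelled strNrip1-/- had 5218, 4355 and 5168 FPKM. The lowest library labelled strNrip1-/- was above the highest labelled WT library, and in both groups labelled WT the highest value was that of replicate 2. The difference was 1.82-fold in sedentary libraries (95% interval 1.36 to 2.43, log2 0.86 ± 0.19 SE, adjusted p = 0.0315) and 1.69-fold in trained libraries (1.27 to 2.26, log2 0.76 ± 0.19, adjusted p = 0.0390). These and all adjusted p-values below are from limma on log2(FPKM + 0.5) with Benjamini-Hochberg adjustment over the 12744 genes, and a gene was called at an adjusted p under 0.05 and a fold change above 1.2. In a whole muscle, a change in the share of a cell type and a change in transcript per cell cannot be told apart.

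The call for Mb was kept in 17 of 25 alternatives at rest and in 16 of 25 after training. Besides single libraries, it was lost without a filter on low values (adjusted p = 0.0523 and 0.0669), at rest with only the 6 libraries compared (0.122) and after training without the mean-dependent variance prior (0.0525). Leaving out replicate 1 or 3 of labelled WT sedentary, replicate 1 or 2 of labelled strNrip1-/- sedentary or replicate 3 of labelled strNrip1-/- trained moved the sedentary adjusted p to between 0.0516 and 0.134. For the trained comparison, 7 of the 12 fits without a library gave an adjusted p between 0.0572 and 0.135, namely those without replicate 3 of labelled WT sedentary, replicate 1 of labelled strNrip1-/- sedentary, replicate 1 or 3 of labelled WT trained and any replicate of labelled strNrip1-/- trained. Without all 3 libraries that stood apart in slow and 2A markers the log2 differences were 1.01 and 0.89 (adjusted p = 0.0669 and 0.0461), so the call at rest was lost, and without only the 2 of them labelled WT they were 1.03 and 0.89 (adjusted p = 0.0206 and 0.0262). Averaged over training, Mb was 1.76-fold higher (1.43 to 2.16, adjusted p = 0.00293), and this call held in all 24 alternatives. Mb shares 5942 bases of its span with Apol6 on the other strand, which was at 13.4 to 21.3 FPKM, and 412 bases with the antisense gene Gm49540, which was not analysed here. The library kit does not keep strand.

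Among the hydroxylases, Egln1 (PHD2), the main oxygen-dependent brake on HIF in most tissues, was higher in the libraries labelled strNrip1-/- and had the smallest standard error of the 9 genes tested. It was at 82.2, 80.6 and 80.9 FPKM in labelled WT sedentary and 105, 96.0 and 101 FPKM in labelled strNrip1-/- sedentary libraries. After training it was at 86.7, 79.1 and 78.1 FPKM in labelled WT and 114, 116 and 116 FPKM in labelled strNrip1-/-. No library labelled strNrip1-/- overlapped with labelled WT. The difference was 1.24-fold in sedentary libraries (1.13 to 1.35, log2 0.31 ± 0.059 SE, adjusted p = 0.0176) and 1.41-fold in trained libraries (1.29 to 1.55, log2 0.50 ± 0.059, adjusted p = 0.00111). The trained call held in all 25 alternatives, and the call over both (1.32-fold, 1.24 to 1.41, adjusted p = 0.000141) in all 24. The sedentary call was lost in 10 of 25: with each library scaled to the same total (log2 0.15, adjusted p = 0.421) or the same total of nuclear genes (log2 0.39, adjusted p = 0.0611), with only the 6 sedentary libraries, without the mean-dependent variance prior, without any replicate of labelled WT sedentary or replicate 1 of labelled strNrip1-/- sedentary (adjusted p from 0.0658 to 0.0682), and without the libraries that stood apart in slow and 2A markers (adjusted p = 0.0712 without the 2 labelled WT and 0.176 without all 3). Genes of the mitochondrial genome took 51.2% to 52.8% of the summed FPKM in the 3 libraries of labelled strNrip1-/- sedentary and 42.2% to 47.3% in the other 9, and the part of this in the change with scaling was not tested.

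Egln2 (PHD1) went the other way at rest. It was at 52.7, 51.0 and 45.3 FPKM in labelled WT sedentary and 38.8, 43.0 and 34.8 FPKM in labelled strNrip1-/- sedentary libraries, which did not overlap. In trained libraries it was at 47.2, 50.9 and 51.2 against 44.3, 46.9 and 42.7 FPKM, where the lowest labelled WT and the highest labelled strNrip1-/- library were close without overlapping. The sedentary ratio was 0.784 (0.686 to 0.896, adjusted p = 0.0538) and the trained ratio 0.898 (0.786 to 1.03, adjusted p = 0.351), so neither was called. Over both, the adjusted p was 0.0229 but the ratio of 0.839 lay just inside the 1.2-fold limit, and the call was made in 5 of 24 alternatives. The sedentary difference was called in 5 of 25, among them scaling to the same total (log2 -0.51, adjusted p = 0.01003) and leaving out replicate 2 of labelled strNrip1-/- sedentary (log2 -0.43, adjusted p = 0.0294).

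Egln3 (PHD3), itself a well-known HIF target, differed more with training than with genotype, without passing the test. Sedentary libraries had 12.5, 16.3 and 15.2 FPKM (labelled WT) and 11.9, 11.1 and 12.8 FPKM (labelled strNrip1-/-). Trained libraries had 20.1, 28.4 and 18.6 FPKM (labelled WT) and 15.7, 28.0 and 32.2 FPKM (labelled strNrip1-/-). Within each labelled genotype all trained libraries were above all sedentary ones. Trained against sedentary was 1.49-fold in labelled WT (1.04 to 2.13, adjusted p = 0.537) and 1.996-fold in labelled strNrip1-/- (1.40 to 2.85, adjusted p = 0.200). Averaged over genotype it was 1.72-fold (1.34 to 2.22, adjusted p = 0.106), and without replicate 1 of labelled strNrip1-/- trained, the lowest of its group, it was called (log2 0.94, adjusted p = 0.0416). The training difference in labelled strNrip1-/- was called once libraries were scaled to the same total (log2 1.17, adjusted p = 0.0363).

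**Figure D2:**
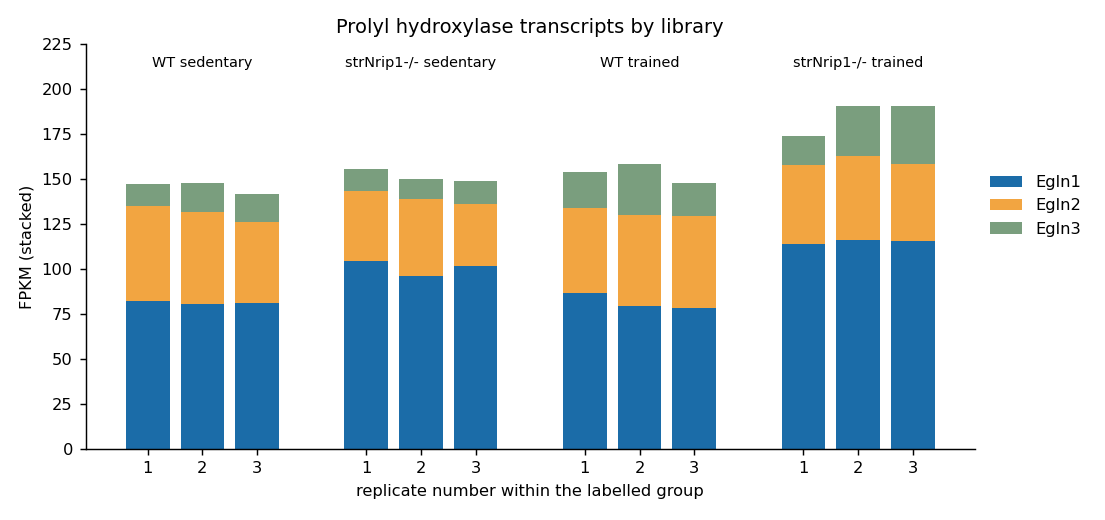
FPKM of Egln1, Egln2 and Egln3 stacked for each library, by labelled group and replicate number. The summed level is 141.5 to 155 FPKM in sedentary libraries and 174 to 191 FPKM in trained libraries labelled strNrip1-/-, with a larger Egln1 share in both groups labelled strNrip1-/-.

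Ratios within a library do not depend on how libraries were scaled. The ratio of Egln1 to Egln2 was 1.64 ± 0.126 (SD, n = 3) in labelled WT sedentary and 2.61 ± 0.347 in labelled strNrip1-/- sedentary libraries. After training it was 1.64 ± 0.171 and 2.58 ± 0.120. The highest library labelled WT had 1.84 and the lowest labelled strNrip1-/- had 2.23, so the groups did not overlap. Egln1 made up 55.8% ± 1.34 and 66.4% ± 2.19 of the summed prolyl hydroxylase FPKM in sedentary and 53.0% ± 3.17 and 62.3% ± 2.75 in trained libraries. The sum itself was 146 ± 3.56 and 151 ± 3.31 FPKM in sedentary libraries and 153 ± 5.33 and 185 ± 9.75 FPKM in trained libraries, labelled WT first. Trained libraries labelled strNrip1-/- lay above all others in this sum. These ratios and sums are descriptions with no test.

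Hif1an (factor inhibiting HIF) was lower in the libraries labelled strNrip1-/-. Labelled WT sedentary had 44.0, 37.0 and 39.1 FPKM against 32.2, 27.1 and 33.9 FPKM, and labelled WT trained had 45.3, 38.5 and 44.6 FPKM against 32.9, 35.9 and 34.6 FPKM. The groups did not overlap at either state. The ratios were 0.778 at rest (0.668 to 0.906, adjusted p = 0.0802) and 0.809 after training (0.694 to 0.942, adjusted p = 0.0999), neither of which was called. Averaged over training, 0.793 (0.712 to 0.884, adjusted p = 0.0115) was called, in 22 of 24 alternatives, the exceptions being scaling to the same total (adjusted p = 0.0565) and to the same nuclear total (adjusted p = 0.156). The within-library ratio of Egln1 to Hif1an was 2.04 ± 0.156 and 3.26 ± 0.274 at rest and 1.91 ± 0.151 and 3.34 ± 0.112 after training, labelled WT first, again without overlap.

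Of the alpha subunits, Epas1 was called only in the average over training and Hif1a in no comparison, and the difference between both genes was not tested. Epas1 was at 35.2, 31.8 and 35.6 FPKM in labelled WT sedentary and 42.3, 37.5 and 45.6 FPKM in labelled strNrip1-/- sedentary libraries. Trained libraries had 35.8, 45.7 and 36.1 FPKM (labelled WT) and 47.1, 55.8 and 53.3 FPKM (labelled strNrip1-/-), the highest group. At each state the genotypes did not overlap, although neither comparison was called. The ratio was 1.22 at rest (1.03 to 1.44, adjusted p = 0.226) and 1.33 after training (1.12 to 1.57, adjusted p = 0.0528). Averaged over training it was 1.27 (1.13 to 1.43, adjusted p = 0.0157), a call that held in 23 of 24 alternatives and was lost on scaling to the same total (adjusted p = 0.0697). The trained difference was called in 7 of 25 alternatives, among them the fit without replicate 2 of labelled WT trained (log2 0.525, adjusted p = 0.0170), and over the 12 fits without a library its log2 value ran from 0.35 to 0.525.

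Hif1a and Arnt showed no difference that passed the test. Hif1a ranged from 3.89 to 5.06 FPKM over the 12 libraries, with ratios of 0.972 at rest (0.827 to 1.14, adjusted p = 0.911) and 0.944 after training (0.803 to 1.11, adjusted p = 0.729), so the intervals reach down to 0.803 and up to 1.14. Arnt ranged from 12.7 to 18.3 FPKM, with ratios of 0.944 (0.795 to 1.12) and 0.983 (0.828 to 1.17). The ratio of Epas1 to Hif1a within a library was 7.82 ± 0.730 and 9.81 ± 0.277 at rest and 8.95 ± 1.91 and 12.6 ± 1.12 after training, and the trained groups came close, at 11.1 for the highest labelled WT and 11.5 for the lowest labelled strNrip1-/- library. Vhl ranged from 1.52 to 2.76 FPKM, with ratios of 0.788 at rest (0.599 to 1.03, adjusted p = 0.384) and 0.984 after training (0.749 to 1.29, adjusted p = 0.962). Overlapping genes that share the span of Hif1a (Gm15283, antisense, and Gm49321) were not analysed here, so reads could not be split between them.

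**Figure D3:**
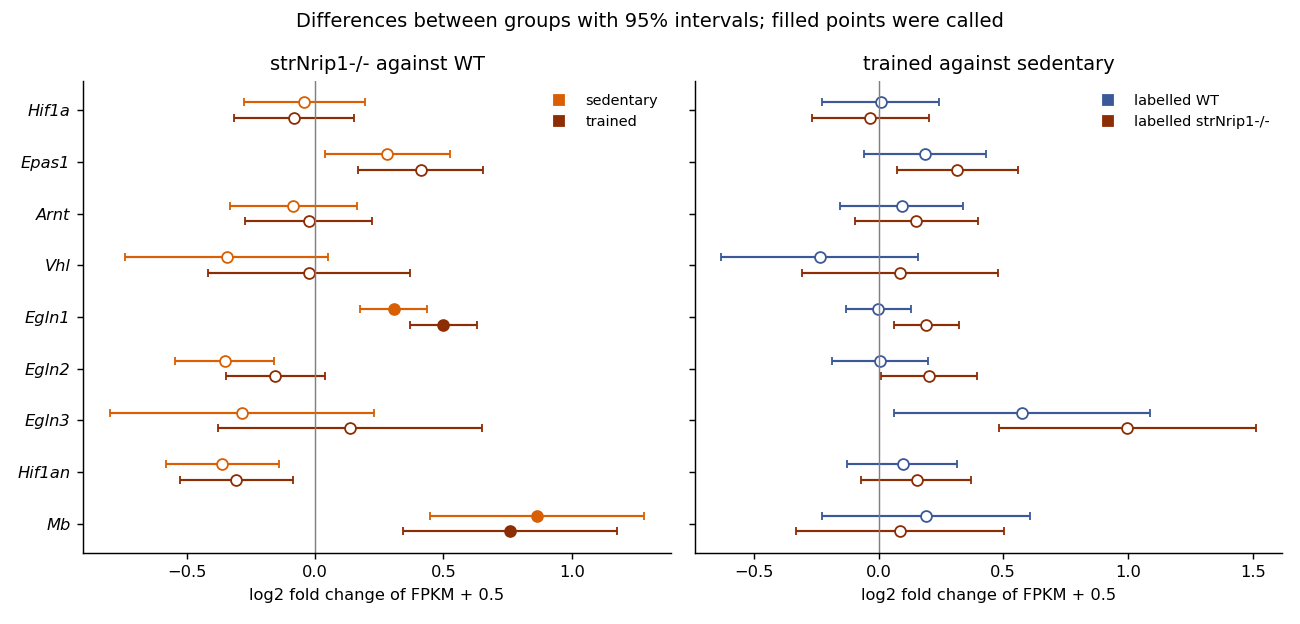
Log2 fold change of FPKM + 0.5 with its 95% interval for the 9 tested genes, strNrip1-/- against WT on the left and trained against sedentary on the right. Filled points were called, which holds for Egln1 and Mb in the genotype comparisons (1.24-fold and 1.82-fold at rest) and for no gene in the training comparisons.

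In counts, 2 of the 9 tested genes (Egln1 and Mb, both higher) were called between labelled genotypes at rest, where 3.51% of all genes were called, 1.92% higher and 1.59% lower. After training 2 of 9 were called, the same pair, against 5.98% of all genes (3.21% higher and 2.77% lower). Averaged over training 4 of 9 were called, Egln1, Mb and Epas1 higher and Hif1an lower, against 8.80% of all genes (4.90% higher and 3.91% lower). This average uses the libraries of both comparisons and is not independent of them. At an unadjusted p under 0.05 there were 5 of 9 genes at rest, 4 after training and 5 on average. Of all 12744 genes, 2080, 2683 and 3072 reached that level in the same comparisons.

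Training within a labelled genotype gave no call by limma in any gene, members included (0% of 12744 in both), although 1061 genes in labelled WT and 1544 in labelled strNrip1-/- had an unadjusted p under 0.05. Among the 9 genes 1 reached that level in labelled WT (Egln3) and 4 in labelled strNrip1-/- (Epas1, Egln1, Egln2 and Egln3). Averaged over genotype, 15 genes were called (0.118%), none of them among the 9. At an unadjusted p under 0.05 there were 3 of the 9 and 1466 of all 12744 genes. Mb differed by 1.14-fold with training in labelled WT (0.854 to 1.52, adjusted p = 0.850) and 1.06-fold in labelled strNrip1-/- (0.795 to 1.42, adjusted p = 0.902). These intervals reach up to 1.52-fold and do not show that training left Mb as it was. The training comparisons share their libraries with the genotype comparisons.

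The test of whether the genotype difference itself changed with training called no gene (limma, 0%, with 989 genes at an unadjusted p under 0.05). The closest of the 9 was Egln1, whose genotype ratio was 1.14 times larger after training (1.01 to 1.30, unadjusted p = 0.0418, adjusted p = 0.635). For Mb the corresponding value was 0.930 (0.618 to 1.40, adjusted p = 0.957), for Epas1 1.09 (0.862 to 1.39, adjusted p = 0.875) and for Egln2 1.15 (0.949 to 1.38, adjusted p = 0.724).

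**Figure D4:**
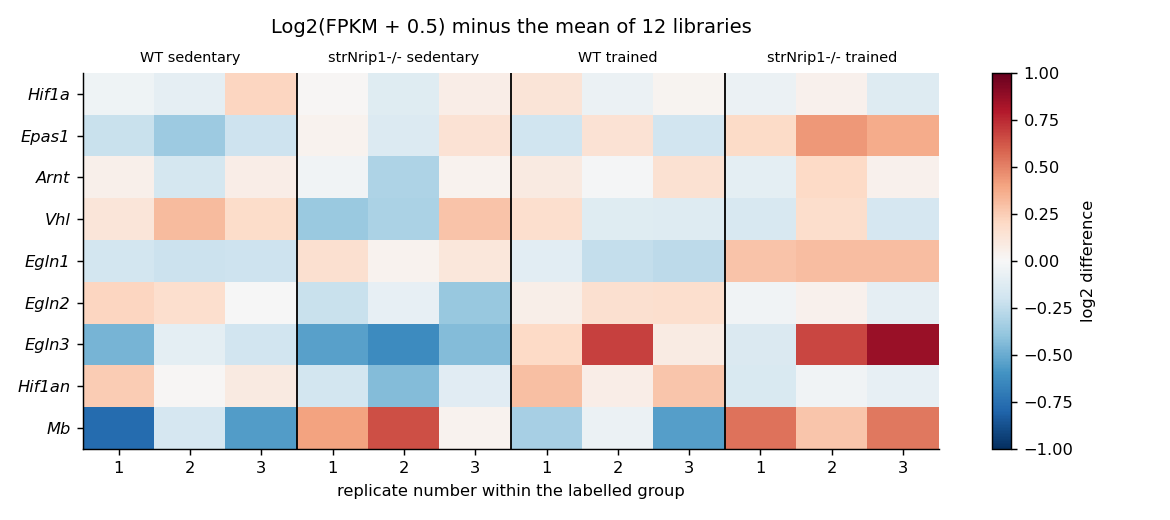
Log2(FPKM + 0.5) of the 9 tested genes in each library, minus the gene's mean over 12 libraries, in columns by labelled group and replicate number and colored from -1 to 1. Mb and Egln1 are above their mean in all libraries labelled strNrip1-/-, and the 3 highest Egln3 values are in trained libraries.

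Cell types and fibers were checked beside these results, since Epas1 is abundant in endothelium and Mb in oxidative fibers. Of 15 endothelium markers, 15 at rest and 14 after training had a positive genotype difference (medians 0.18 and 0.25 on the log2 scale, against -0.001 and 0.007 over all genes), and 0 were called in either, while 3 were called in the average (Cdh5, Vwf and Sox17, chosen for mention after their values were seen). Their summed FPKM was 189 to 196 in labelled WT sedentary, 203 to 238 in labelled strNrip1-/- sedentary, 171 to 193 in labelled WT trained and 213 to 221 in labelled strNrip1-/- trained libraries. Scaling to the same total lowered the median at rest to 0.04. Epas1 as a share of that sum was 17.7% ± 1.3 and 18.9% ± 3.1 at rest and 21.3% ± 2.9 and 23.8% ± 1.6 after training, labelled WT first, and the genotypes overlapped in this share at both states.

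Of 7 smooth muscle and pericyte markers, 6 and 7 had a positive difference and 2 (Pdgfrb and Kcnj8) were called after training. Their sums were 141.0 to 143 FPKM in labelled WT and 153 to 174 FPKM in labelled strNrip1-/- at rest, without overlap, and overlapped after training at 135 to 163 and 160.0 to 176 FPKM. No marker of either list was at 0 in all libraries. Of 10 fast 2B fiber markers, all had a negative difference in both comparisons (medians -0.35 and -0.42) and 3 were called lower in each (Actn3, Mybpc2 and Casq1). Of 10 slow and 2A markers, 4 and 3 had a positive difference (medians -0.15 and -0.32), and 1, Myh2, was called higher after training. The summed slow and 2A markers overlapped between labelled genotypes, at 303 to 672 against 398 to 658 FPKM at rest and 342 to 944 against 528 to 739 FPKM after training. The part of these shifts in the differences of Epas1 and Mb was not tested.

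Adipocyte markers (9 listed, 8 tested) were positive in 8 of 8 at each state with 0 called, and their sums were 195 to 234 FPKM in labelled WT and 253 to 380 FPKM in labelled strNrip1-/- sedentary libraries, and overlapped after training at 222 to 264 and 244 to 356 FPKM. The largest part of these sums was the single gene Fabp4, at 171 ± 15.5 and 214 ± 23.9 FPKM at rest, labelled WT first. Macrophage markers (9 tested) and fibroblast markers (7 tested) had 0 called in both genotype comparisons, with medians of 0.12 and 0.12 at rest, which became -0.03 and -0.01 when libraries were scaled to the same total, and of -0.09 and -0.27 after training. The blood list (5 tested, median 0.10 at rest and 0.43 after training) had 0 called, its median at rest became -0.06 on scaling to the same total, and its sum varied from 723 to 1834 FPKM over the libraries.

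The other globins gave no call. Of 7 listed genes of globins and heme supply 6 were tested, with 0 called in each genotype comparison, and the median at rest of 0.09 became -0.07 on scaling to the same total. Apart from Cygb, the tested genes are those of the blood list above, so this list is not independent of it. Cygb (cytoglobin) was at 10.4 ± 0.368 (SD, n = 3) and 10.9 ± 0.997 FPKM at rest and 9.29 ± 0.804 and 11.7 ± 0.918 FPKM after training (adjusted p = 0.840 and 0.0706). The hemoglobin genes had positive differences that did not pass the test, with Hba-a1 at log2 0.07 and 0.52 (adjusted p = 0.953 and 0.404).

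Partners that bind, stabilise or degrade HIF were counted next. Of 21 such genes, all tested, 0 were called in any of the 7 comparisons, with medians of -0.04 at rest and -0.01 after training. Os9, a HIF-1α binding protein of the endoplasmic reticulum, reached an adjusted p of 0.0398 in the average with a log2 difference of 0.25, under the 1.2-fold limit. The smallest p-values in a comparison of 2 groups were those of Cul2 (the ligase scaffold, log2 -0.27 after training, adjusted p = 0.0557) and Cited2 (a competitor for the coactivator p300, log2 0.95 after training, adjusted p = 0.0659). All 3 are values that were not called, and were chosen after they were seen. The median at rest changed sign with scaling to the same nuclear total (0.04), as did that after training with either total (0.06 and 0.03).

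Known HIF target genes moved in both directions. Of 53 listed, 52 were tested, and at rest 3 were called higher and 3 lower between labelled genotypes, against 1.92% and 1.59% of all genes. After training 6 were higher and 5 lower, against 3.21% and 2.77%. The medians were -0.05 and 0.04 on the log2 scale, and the median at rest changed sign with scaling to the same nuclear total (0.02). Averaged over training, 8 were higher and 7 lower, against 4.90% and 3.91% of all genes.

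The targets called higher were Hk1, Eno1 and Gbe1 at rest and these with Gys1, Pfkl and Lonp1 after training. Hk1, the hexokinase of oxidative tissues, was at 3.13 ± 0.103 and 5.25 ± 0.747 FPKM at rest and 2.80 ± 0.269 and 6.13 ± 0.810 FPKM after training, 1.58-fold and 2.003-fold higher (adjusted p = 0.0138 and 0.00120). Eno1, the enolase of non-muscle type, was 1.52-fold and 1.46-fold higher (adjusted p = 0.0166 and 0.0196). Gys1 (muscle glycogen synthase) was called after training at 1.23-fold (adjusted p = 0.00740) and reached 1.19-fold at rest, under the 1.2-fold limit. Lonp1, a protease of the mitochondrial matrix, was 1.275-fold higher after training (adjusted p = 0.0103). Gbe1, the glycogen branching enzyme, had log2 differences of 0.47 and 0.45 (adjusted p = 0.0293 and 0.0288), and Pfkl, the liver-type phosphofructokinase, had 0.61 after training (adjusted p = 0.0351).

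The targets called lower were Slc2a3, Pkm and Bnip3 at rest and Slc2a3, Pkm, Slc16a3, Ldha and Tpi1 after training. Pkm (pyruvate kinase) was at 2325 ± 84.8 and 1791 ± 114 FPKM at rest and 2270 ± 118 and 1815 ± 71.1 FPKM after training, ratios of 0.770 and 0.800 (adjusted p = 0.0206 and 0.0301). Slc16a3, the lactate exporter MCT4, had a ratio of 0.600 after training (adjusted p = 0.0114) and 0.741 at rest (adjusted p = 0.132). Slc2a3, a glucose transporter, was also called at rest (log2 -1.54, adjusted p = 0.0259), from 3.19 ± 0.475 to 0.820 ± 0.469 FPKM. Ldha (lactate dehydrogenase) and Tpi1 (triosephosphate isomerase) had log2 differences of -0.45 and -0.41 after training (adjusted p = 0.0287 and 0.0407). Slc2a3, Ldha, Tpi1, Gbe1 and Pfkl were named after their values were seen.

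Of 5 targets named whatever their result, 1 was called in a comparison of 2 groups. Bnip3, a mitophagy receptor, was lower at rest (136 ± 4.95 and 103 ± 10.3 FPKM, ratio 0.759, adjusted p = 0.0411) and gave a ratio of 0.945 after training (adjusted p = 0.682). Vegfa, the angiogenic ligand, was at 147 ± 15.99 and 174 ± 11.7 FPKM at rest and 131 ± 23.9 and 174 ± 9.19 FPKM after training, 1.19-fold and 1.34-fold (adjusted p = 0.364 and 0.0770), and was called in the average (1.26-fold, adjusted p = 0.0337). Slc2a1 (GLUT1), Pdk1 (a brake on pyruvate oxidation) and Ankrd37 had log2 differences of -0.36, 0.13 and -0.50 at rest and 0.17, 0.21 and -0.04 after training, none of which was called. With training, Ddit4, a stress-induced inhibitor of mTORC1 that is also raised by glucocorticoids, was the single target called in the average (log2 1.78, adjusted p = 0.0227), and was named after its values were seen.

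**Figure D5:**
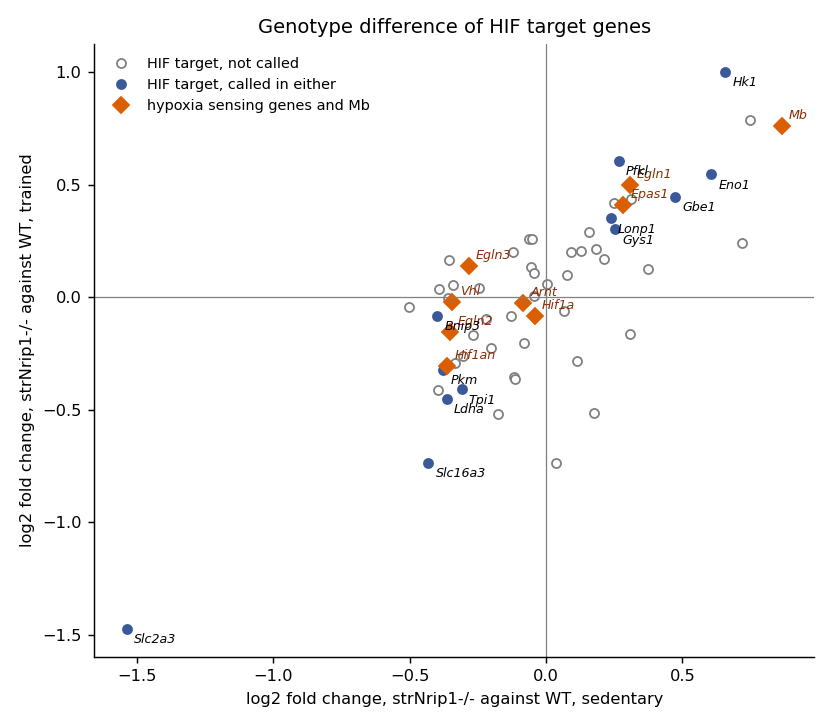
Log2 fold change of strNrip1-/- against WT in sedentary (horizontal) and trained (vertical) libraries for 52 HIF target genes, filled where called in either comparison, and for the 9 tested member genes as diamonds. Mb lies at 0.86 and 0.76, and the called targets lie in both the upper right and the lower left.

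The genes whose pattern over the 12 libraries was most like each of the 9 were found by Pearson's r of log2(FPKM + 0.5), as a description in which all points share the same libraries. For Mb they were Slc25a3 (the mitochondrial phosphate carrier, 0.99), Tufm (a mitochondrial elongation factor, 0.98) and Coq9 (ubiquinone synthesis, 0.98). For Egln1 they included St6galnac6 and Acads (short-chain acyl-CoA dehydrogenase), at 0.97 each. For Epas1 they were Rgs5, a pericyte marker (0.97), Tns1 (0.96) and Adcy6 (0.95). Hif1an was closest to Prkar2a and Xirp2 (0.98 each) and Eif4ebp2 (0.97), and Egln2 to Ybx3 (0.96), Metrn (0.94) and Gng12 (0.93). The highest values were lower for Arnt (Tsc1, 0.94, Ryr1, 0.94, and Ptp4a2, 0.93), Hif1a (Gtf2a1, 0.88), Egln3 (AU040320, 0.87) and Vhl (Tm7sf3, 0.82). These genes showed no called difference, and neither did Egln2, which was called only in alternatives.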

How the data were processed

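RNA-seq of EDL was analysed as gene-level FPKM in 12 libraries, 3 in each of 4 groups. The FPKM were deposited by the authors, who per the study's methods prepared NEBNext Ultra libraries (not stranded) and quantified transcripts. The submitters' processing notes name Salmon 1.10.2, DESeq2 1.44.0 and mm10, and the annotation release is not given in the sources used here. A further 8 columns, log2 fold changes and adjusted p-values of 4 comparisons made by the authors, were not used.

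The 12744 of 17752 genes whose mean over the libraries reached 0.5 FPKM were tested on log2(FPKM + 0.5) with limma 3.58.1 in R 4.3.3, with 4 group means, a mean-dependent variance prior and Benjamini-Hochberg adjustment within each of 7 comparisons. A gene was called at an adjusted p under 0.05 and a fold change above 1.2 (for the interaction, the adjusted p alone). The fold changes on this scale understate those of low genes. The fit was tested on simulated data. Depth was estimated at 19.9 to 29.2 M fragments from the steps of low FPKM in 1613 single-transcript genes, where 99.1% to 99.8% of the values used came out whole within 0.15 of a fragment. Floors and depth cover counting error only.

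Groups came from the labels. All 10 members were named, with the 3 genes most like each (1 of them is not reported here), up to 6 called genes of each list by smallest p, the targets Vegfa, Slc2a1, Pdk1, Bnip3 and Ankrd37, and Nrip1. The members and all gene lists (HIF partners and targets, globins, and markers of endothelium, smooth muscle and pericytes, adipocytes, macrophages, fibroblasts, blood, and slow or 2A and fast 2B fibers) were chosen with earlier results of these data known. Promoters came from RefSeq on GRCm38.p6. Alternatives were another pseudocount, filter, scaling, variance prior, set of libraries, a replicate block and each library left out.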

Additional observations from a re-analysis of the deposited data

How the results depend on the processing

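Over 28 settings, 30 of 1534 alternative values of single genes lost a call, 19 gained one, 0 called values reversed and 62 changed sign without a call, and 85 of 1596 list medians moved by more than the replicate spread. Of the 9 tested member genes, 1 was called at rest and 1 after training without a filter on low values, and likewise without the mean-dependent variance prior, 1 at rest with libraries scaled to the same nuclear total, 0 at rest with only the 6 libraries compared, and 1 for training in labelled strNrip1-/- with scaling to the same total. Without the 2 labelled WT libraries numbered 2, chosen after seeing the data, 1 member was called at rest, and all genes called were 259 at rest and 0 for training averaged. Without all 3 libraries that stood apart in slow fiber genes, also chosen after seeing the data, 0 members were called at rest, and all genes called were 143 at rest, 398 after training and 0 for training averaged. With only the 6 libraries compared, all genes called were 166 at rest and 445 after training. Training in labelled WT gave 8 genes with a minimum of 5 FPKM, 1 with the same total, 2 with the same nuclear total and 4 with quantile normalization. Training in labelled strNrip1-/- gave 5, 150 and 3 genes with the minimum of 5 FPKM, the same total and the same nuclear total, and training averaged gave 26 with the same total and 28 with quantile normalization. The causes were not tested.

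Without each library in turn, all genes called ranged from 163 to 478 at rest (members 0 to 2), 315 to 874 after training (members 1 to 3), 849 to 1193 averaged (members 4 to 5), 0 to 30 for training in labelled WT, 0 to 4 for training in labelled strNrip1-/-, 1 to 190 for training averaged (members 0 to 1) and 0 to 1 for the interaction. The lowest counts at rest and after training came without replicate 1 of labelled WT sedentary and replicate 3 of labelled strNrip1-/- trained. Scaling to the same total moved the median of all genes by -0.14 at rest, 0.16 for training in labelled strNrip1-/- and 0.20 for the interaction. The share of calls that were higher was 54.8% at rest, 53.7% after training, 55.6% averaged and 66.7% for training averaged. It became 18.6%, 80.9%, 45.0% and 80.8% with the same total and 82.7%, 75.8%, 77.5% and 63.2% with the same nuclear total.

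Libraries of different groups share only a replicate number. Whether the number marks a pairing was looked at in deviations, meaning log2 values minus each gene's group mean. Between same-numbered libraries the correlations of these deviations ran from -0.105 to 0.241, and 5 of 18 pairs were over 0.1. In 12 of 36 cases a library correlated best with its own number among the 3 of another group. The undeviated log2 values correlated at 0.976 to 0.985 within groups. With the number as a replicate block, training in labelled WT gave 4 genes, and Egln2 at rest was called (log2 -0.35, adjusted p = 0.0417).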
